A study of Mus musculus with 6 samples.

Results

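NADPH oxidases are enzyme complexes whose product is superoxide or hydrogen peroxide. Antioxidant genes encode the proteins that remove these or limit their damage. The 9 genes described here are Cybb, Cyba, Ncf1, Ncf4 and Rac2 of the phagocyte oxidase, Nox4, and the antioxidant genes Nfe2l2, Nqo1 and Sod2. Nox4 is an oxidase that muscle and stromal cells express. The 9 genes were chosen by name. All were found among the 19752 genes whose probe sets carried 1 gene symbol, each with 1 probe set. Every sample of both groups was skeletal muscle RNA from mdx mice, which have no dystrophin and whose muscle cycles through fibre death, inflammation and repair. One group of 3 samples received the anti-CD25 monoclonal antibody of clone PC61, which binds the interleukin-2 receptor alpha chain carried by regulatory T cells. The other group of 3 received rat IgG. The labels do not name the muscle taken. Each antibody was injected into the peritoneum 2 times, at 17 and then 20 days of age. Dissection followed 7 days later by the design text, at day 27, but the age in the labels is 6 weeks, or day 42. As its title puts the question, the study asked how loss of regulatory T cells affects such muscle.

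In phagocytes, gp91phox (Cybb) and p22phox (Cyba) form the membrane-bound core of the oxidase. On activation cytosolic subunits, among them p47phox (Ncf1) and p40phox (Ncf4), join the core together with the small GTPase Rac2, and electrons pass from NADPH to oxygen. Nox4 also pairs with p22phox but needs none of the cytosolic subunits, and its output follows its abundance. NRF2, the product of Nfe2l2, is held down by KEAP1 and under oxidative stress switches on antioxidant genes, among them the quinone reductase Nqo1. In dystrophic muscle, reactive oxygen from infiltrating phagocytes and from the fibres themselves is a known source of damage.

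Values are log2 intensities, 1 array per sample, and differences are anti-CD25 minus rat IgG in log2 units. The arrays had median intensities of 149.8 to 151.5. The labels call every mouse male, but Xist, the RNA of the inactive X chromosome, lay between 11.77 and 11.94 on 4 arrays and at 5.48 and 5.49 on the others. The Y-linked gene Kdm5d ran the opposite way, at 4.62 to 5.09 on those 4 arrays and at 7.80 and 7.85 on the others. High Xist with low Kdm5d is the pattern of female RNA, so those 4 arrays go against the male label. Xist class thus follows the sex read from the RNA. Each group held 2 arrays with high Xist, numbers 1 and 2, and 1 array with low Xist, number 3, so differences are also given within the high arrays and between the low ones. Nothing in the labels ties a sample to an animal, so the p-values speak of the spread among these arrays alone, part of which may be technical. Foxp3, the transcription factor of regulatory T cells, differed by -0.092 (SE 0.099), with -0.23 within the high Xist arrays and 0.18 between the low ones. Il2ra, the antibody's target, differed by -0.0049 (SE 0.094). Both Foxp3 and Il2ra were dim and neither passed the test, so the arrays do not show how far the cells were depleted. Muscle fibre markers were bright on every array, with a summed intensity of 85566 to 87719 with anti-CD25 and 86130 to 88984 with rat IgG.

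All 5 phagocyte oxidase genes had higher means with anti-CD25, by 0.14 to 0.46, and none passed the test. Across the 19752 genes, 0% had an adjusted p under 0.05 in limma, and 1240 had an unadjusted p under 0.05. Without rat IgG 3, 7 genes (0.0354%) passed, none of them a member. Among the 9 members 0 passed and 8 had a higher mean with anti-CD25, where 41.1% of all genes did. The median difference was 0.21 over the 9 members, against -0.026 over all genes. A single member, Nfe2l2, had an unadjusted p under 0.05, as 6.28% of all genes did.

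**Figure D1:**
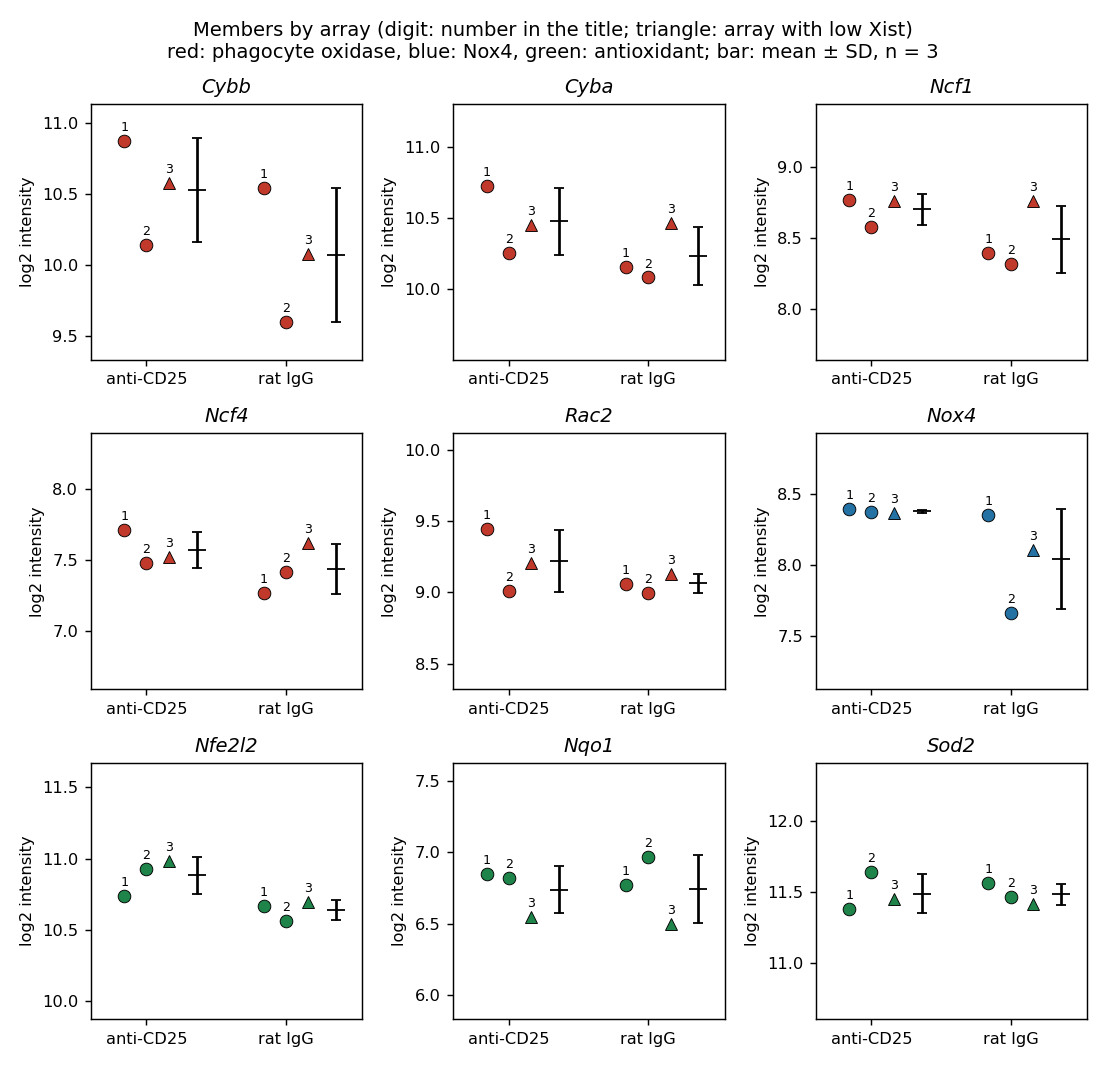
Log2 intensity of each member on each array, with anti-CD25 left of rat IgG, the mean ± SD of 3 arrays beside the points, and every panel spanning the same height. Nox4 and Nfe2l2 are the members whose groups do not overlap, both higher with anti-CD25. For Nox4 the gap is 0.012, above rat IgG 1, and the size of the difference rests largely on rat IgG 2 at 7.66. Of all genes, 4.28% had no overlap in this direction.

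Cybb, the catalytic subunit that carries electrons across the membrane, measured 10.87, 10.14 and 10.57 on anti-CD25 arrays 1, 2 and 3, against 10.54, 9.60 and 10.08 on rat IgG arrays 1, 2 and 3. The groups overlapped, since rat IgG 1 lay above anti-CD25 2, and rat IgG 2 was the lowest array. The difference was 0.46 (SE 0.24, 95% interval -0.094 to 1.01), a 1.37-fold higher level, with adjusted p = 0.750 in limma and an exact two-sided permutation p of 0.2. Only 0.511% of all genes differed upward by as much, but the spread among arrays of one group was of the same size, with an SD of 0.37 with anti-CD25 and 0.47 with rat IgG. It was 0.44 within the high Xist arrays and 0.50 between the low ones. Without rat IgG 2 the Cybb difference was 0.22, without anti-CD25 1 it was 0.29 and without rat IgG 1 it was 0.69.

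The gene lies on the X chromosome. The 250 bases before its annotated start site are shown because Cybb had the largest difference of the members, on the minus strand of GRCm38.p6 at chrX:9469325-9469574, from RefSeq. Neither of the motifs searched, GAGGAA for the myeloid factor PU.1 and TGACNNNGC for the antioxidant response element, has a match there on either strand, and the run therefore holds no capitals. Only these exact strings were searched, so a binding site with other letters would be missed. The window falls inside the listed gene interval, 9435252 to 9487766, so the bases before the outer end of the gene were not searched.
Cybb: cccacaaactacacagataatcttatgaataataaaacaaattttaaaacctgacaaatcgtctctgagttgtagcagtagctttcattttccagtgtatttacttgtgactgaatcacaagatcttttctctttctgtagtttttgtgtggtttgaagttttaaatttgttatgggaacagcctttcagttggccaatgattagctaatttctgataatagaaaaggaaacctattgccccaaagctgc

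Cyba, the p22phox partner that stabilises both Cybb and Nox4, measured 10.72, 10.25 and 10.45 with anti-CD25, against 10.15, 10.08 and 10.46 with rat IgG. Rat IgG 3 reached the anti-CD25 range and the other rat IgG arrays lay below it. The difference was 0.24 (SE 0.14, 95% interval -0.076 to 0.56, limma adjusted p = 0.750). It was 0.37 within the high Xist arrays and -0.012 between the low ones, and without anti-CD25 1 it was 0.12.

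Among the cytosolic subunits, Ncf1, the organiser that brings the others to the membrane, measured 8.77, 8.58 and 8.76 with anti-CD25, against 8.40, 8.32 and 8.76 with rat IgG. Again rat IgG 3 alone reached the anti-CD25 arrays. Its difference was 0.21 (SE 0.12, 95% interval -0.069 to 0.49, limma adjusted p = 0.750), with 0.32 within the high Xist arrays and 0.0042 between the low ones. Ncf4, whose p40phox product binds a phagosomal lipid and sustains the oxidase there, measured 7.71, 7.48 and 7.52 with anti-CD25, against 7.27, 7.41 and 7.62 with rat IgG. That difference of 0.14 (SE 0.11) became -0.098 between the low Xist arrays and 0.25 within the high ones, and was 0.055 without rat IgG 1. Rac2, the GTPase of blood cells that activates the complex, measured 9.45, 9.01 and 9.21 with anti-CD25, against 9.06, 8.99 and 9.13 with rat IgG. Anti-CD25 1 stood above the other 5 arrays, which lay within 9.21 and 8.99, and without it the Rac2 difference of 0.16 (SE 0.12) was 0.046.

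The 5 genes mostly shared their high and low arrays. All 5 were highest on anti-CD25 1, and 4 of the 5 were lowest on rat IgG 2, with Ncf4 lowest on rat IgG 1. Their mean, each gene taken relative to its own mean over the 6 arrays, was 0.33, -0.087 and 0.12 on anti-CD25 1, 2 and 3, against -0.095, -0.30 and 0.031 on rat IgG 1, 2 and 3. Groups overlapped, with anti-CD25 2 close to rat IgG 1. With anti-CD25 1 left out, the mean difference of 0.24 became 0.14, and with rat IgG 2 left out 0.15, while all 5 genes kept a positive difference whichever array was left out. Within the high Xist arrays it was 0.32 and between the low ones 0.094.

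**Figure D2:**
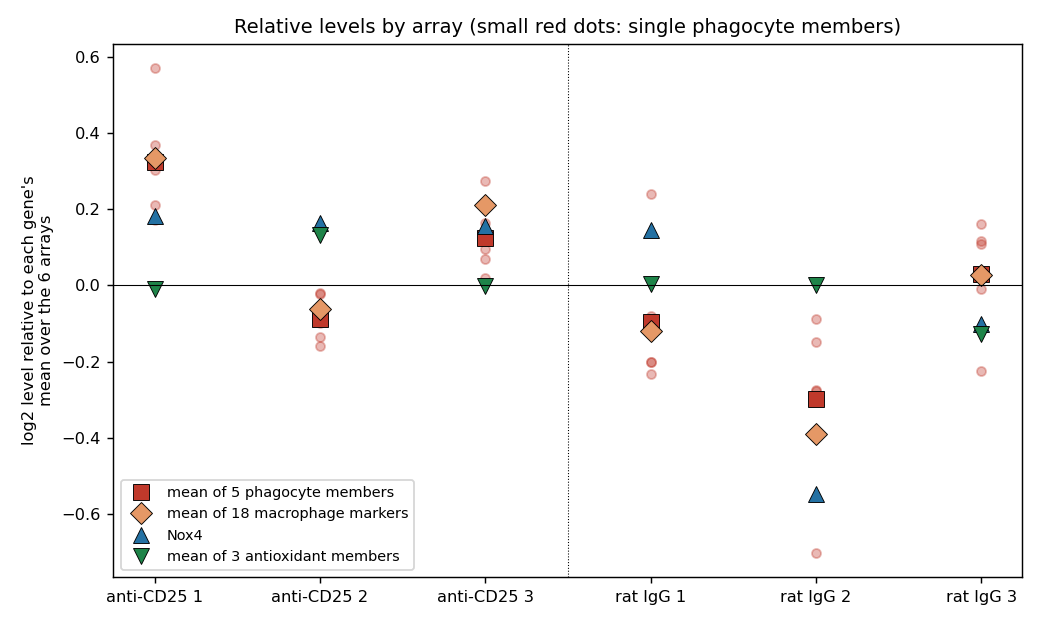
Levels by array in log2 units relative to each gene's mean over the 6 arrays, for the mean of 5 phagocyte oxidase genes, the mean of 18 macrophage markers, Nox4 and the mean of 3 antioxidant genes, with small dots for single phagocyte genes. The squares and diamonds lie close together on every array, highest on anti-CD25 1 and lowest on rat IgG 2, while Nox4 lies between 0.15 and 0.18 on 4 arrays and at -0.55 on rat IgG 2.

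Listed markers of monocytes and macrophages, which carry this oxidase, moved with these genes. The list also holds genes that other leukocytes express, among them Ptprc, Cd53 and Laptm5. Of 18 markers, 17 had higher means with anti-CD25, the median difference was 0.30 and 0 passed the test. An unadjusted limma p under 0.05 was found in 6 of them, all with higher means, and in 6.28% of all genes in either direction. These markers mostly shared their high and low arrays, so they are not separate observations. The mean difference of the 18 was 0.32, and 0.21 without rat IgG 2. Their summed intensity ran from 23162 to 31319 with anti-CD25 and from 19164 to 24268 with rat IgG, and 1 of the 18 lay below the array median on every array. Anti-CD25 1 held the highest value of 13 of the 18 and rat IgG 2 the lowest of 15. Relative to the mean of these markers, the phagocyte oxidase mean was -0.0084, -0.025 and -0.087 on anti-CD25 1, 2 and 3, against 0.026, 0.093 and 0.0019 on rat IgG 1, 2 and 3. In mean, the oxidase genes thus differed by slightly less than these markers, by -0.080, with no overlap between groups. Of the oxidase genes only Cybb, at 0.46, differed by more than the marker mean. No test was run on the gap between the means, which depends on the markers listed. Among single genes, 1474 of 19752 had no overlap with anti-CD25 lower, a share that is no background for a gap between list means. In whole muscle, more cells of a type and more RNA per cell cannot be told apart. Neutrophils also carry the oxidase, and 5 of 12 neutrophil markers had higher means, with a median of -0.041 and summed intensities of 946.9 to 1093 with anti-CD25 and 945.1 to 1188 with rat IgG. Of those 12, 10 lay below the array median on every array. An unadjusted limma p under 0.05 was found in 1 neutrophil marker with a higher mean and 2 with lower means. The part of either cell type, or of the muscle fibres, in the oxidase differences was not tested.

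The 5 genes outside the set whose pattern over the 6 arrays was most like the phagocyte oxidase mean were Arhgdib, the nucleoside transporter Slc29a3, the myeloid receptor gene Cd300ld, the protease inhibitor Cstb and Pik3cd, a leukocyte PI3-kinase subunit. Likeness was the root-mean-square difference between relative profiles, which was 0.030 to 0.042 log2 units for these 5 of 18639 genes compared. Among the members it was 0.059 for Cyba, 0.071 for Rac2, 0.098 for Ncf1, 0.13 for Ncf4 and 0.27 for Cybb, each of which is part of that mean. Cybb lay farthest because its swings were wider, with 0.57 on anti-CD25 1 and -0.70 on rat IgG 2.

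Of the other subunits, Rac1, the widely expressed relative of Rac2, measured 11.49, 11.53 and 11.52 with anti-CD25, against 11.48, 11.50 and 11.49 with rat IgG. The difference was 0.025 (95% interval -0.14 to 0.19, limma adjusted p = 0.951).

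Nox4, which releases mainly hydrogen peroxide and is induced by TGF-beta in stromal cells, measured 8.39, 8.37 and 8.37 with anti-CD25, against 8.36, 7.66 and 8.11 with rat IgG. The anti-CD25 arrays were nearly equal, with an SD of 0.013, whereas the rat IgG arrays spread widely, with an SD of 0.35. Its groups did not overlap, by a gap of 0.012 between the lowest anti-CD25 array and rat IgG 1, and 4.28% of all genes had no overlap in this direction. The difference was 0.34 (SE 0.15, 95% interval -0.016 to 0.69), a 1.26-fold higher level, with limma adjusted p = 0.750 and an exact two-sided permutation p of 0.1, the smallest that 3 against 3 allows. Differences at least as large upward were found in 1.32% of all genes. It rested largely on rat IgG 2: without that array it was 0.15, and without rat IgG 1 it was 0.49. The Nox4 difference was 0.37 within the high Xist arrays and 0.26 between the low ones.

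Set against Nox4 array by array, the phagocyte oxidase mean did not shift in a constant way. The phagocyte mean minus Nox4, both relative to their own means, was 0.14, -0.25 and -0.033 on anti-CD25 1, 2 and 3, against -0.24, 0.25 and 0.13 on rat IgG 1, 2 and 3. Both groups spanned 0, and the mean difference was -0.093. Rat IgG 1 and rat IgG 2 stand at opposite ends, since Nox4 was high on rat IgG 1 where the phagocyte genes other than Cybb were low. Without rat IgG 2 the sign turned, to 0.0078, and without anti-CD25 2 it was 0.0086.

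Acot10, Anp32-ps, Sp140, Vsig4 and Myo5a had the profiles most like Nox4, among 634 genes that varied at least as much, with root-mean-square differences of 0.066 to 0.095 log2 units. Vsig4 is a complement receptor of resident macrophages and Myo5a a vesicle motor. Anp32-ps is annotated as a pseudogene and Sp140 belongs to a family of similar genes, so their probe sets may also bind RNA of relatives. Each of the 5 shared Nox4's lowest array, rat IgG 2, at -0.53 to -0.67 relative to their own means. Of 10 listed NADPH oxidases outside phagocytes with their partners, Nox4 included, 3 had higher and 7 lower means, with a median of -0.059 and 0 passing. Of the 10, 8 lay below the array median on every array. Nox1, the oxidase of colon epithelium, lay between 4.78 and 5.08 with anti-CD25 and within that range with rat IgG, below the lower quartile of every array. Duox1, a dual oxidase of thyroid and airway, measured 6.28, 6.22 and 6.31 with anti-CD25, against 6.41, 6.38 and 5.71 with rat IgG, so that rat IgG 3 alone stood low. Its difference was -0.15 within the high Xist arrays and 0.60 between the low ones, and limma's interaction of treatment and Xist class did not pass (adjusted p = 0.0654), as it did in 0.0405% of all genes. Duox2, named after its value was seen as the 1 gene of this list with an unadjusted p under 0.05, differed by -0.24 (SE 0.10, limma adjusted p = 0.750) and was likewise dim.

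**Figure D3:**
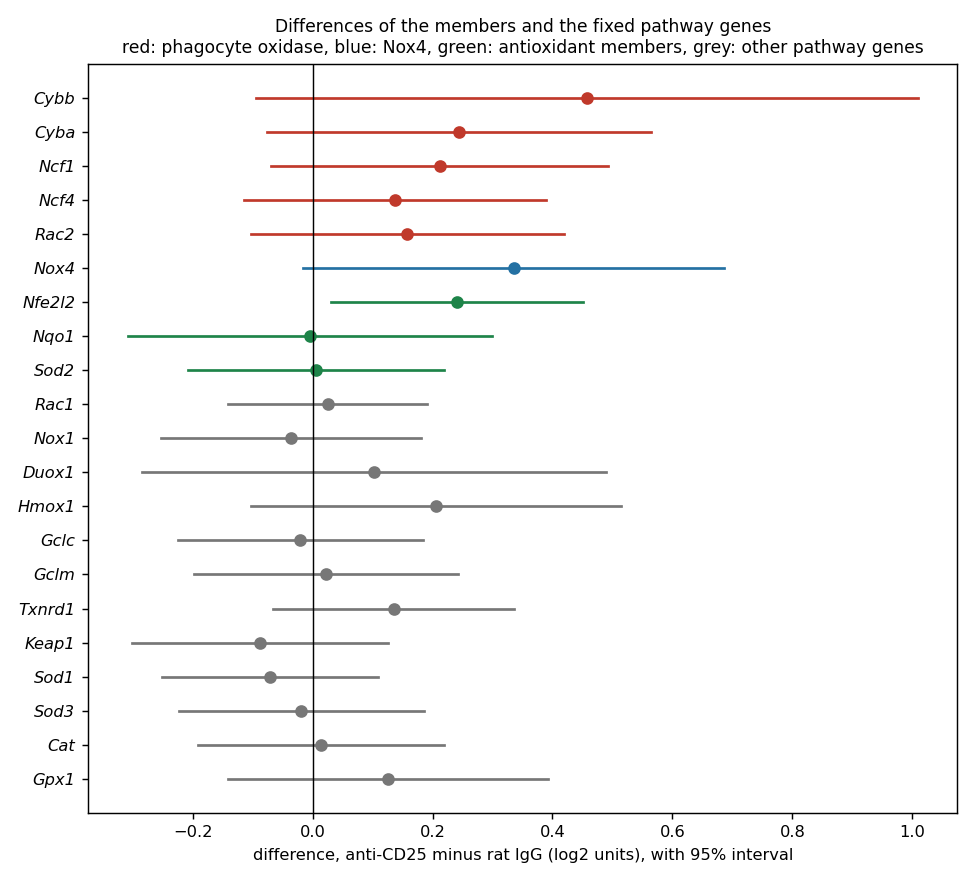
Difference between anti-CD25 and rat IgG in log2 units with limma's moderated 95% interval for the 9 members and the 12 other fixed pathway genes that were measured. All 5 phagocyte genes lie right of 0 with intervals that include 0, and Nfe2l2 is the gene whose interval, 0.030 to 0.45, does not.

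Of the 3 antioxidant members, Nfe2l2 had a mean 0.24 higher with anti-CD25, Nqo1 and Sod2 differed by -0.0047 and 0.0061, and none passed the test. Nfe2l2 measured 10.73, 10.93 and 10.98 with anti-CD25, against 10.66, 10.56 and 10.70 with rat IgG. Every anti-CD25 array lay above every rat IgG array, as in 4.28% of all genes, by a gap of 0.038. The difference was 0.24 (SE 0.093, 95% interval 0.030 to 0.45), a 1.18-fold higher level, with unadjusted p = 0.0295 and adjusted p = 0.750 in limma and an exact two-sided permutation p of 0.1. A difference of that size or more was found in 3.39% of all genes. It was 0.22 within the high Xist arrays and 0.29 between the low ones, and ran from 0.19 to 0.31 when each array was left out in turn. Nfe2l2 thus varied less with single arrays than Cybb or Nox4 did.

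The 250 bases before the Nfe2l2 start site are shown because this was the member whose interval excluded 0, and those of Nqo1 because it is the best-known NRF2 target. Both are from RefSeq, on the minus strand of GRCm38.p6, at chr2:75704664-75704913 for Nfe2l2 and chr8:107403206-107403455 for Nqo1. Capitals mark a match to TGACNNNGC, searched on both strands.
Nfe2l2: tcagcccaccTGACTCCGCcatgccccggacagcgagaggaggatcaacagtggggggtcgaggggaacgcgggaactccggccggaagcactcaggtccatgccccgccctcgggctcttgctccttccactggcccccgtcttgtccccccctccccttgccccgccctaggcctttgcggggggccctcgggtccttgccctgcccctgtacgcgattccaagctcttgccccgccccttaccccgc
Nqo1: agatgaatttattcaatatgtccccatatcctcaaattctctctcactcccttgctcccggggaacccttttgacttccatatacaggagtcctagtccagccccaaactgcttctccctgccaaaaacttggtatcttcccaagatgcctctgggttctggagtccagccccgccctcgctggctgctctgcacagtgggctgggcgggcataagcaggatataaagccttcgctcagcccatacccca
The match in Nfe2l2 lies at positions -240 to -232 relative to the start site, and the Nqo1 window holds none. Of 32851 windows of the same length, 10.2% hold this motif and 23.3% hold GAGGAA, which was matched in 1 of the 7 members with an entry, Sod2. Ncf4 and Rac2 were not among these 7. A match is a description of letters and says nothing of binding in these samples. A window without a match may still hold sites with other letters, and bases outside the windows were not searched.

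Nqo1, a cytosolic enzyme that reduces quinones, measured 6.85, 6.82 and 6.55 with anti-CD25, against 6.77, 6.97 and 6.49 with rat IgG. Its lowest arrays were number 3 of each group, the arrays with low Xist. The treatment difference was -0.0047 (95% interval -0.31 to 0.30, limma adjusted p = 0.996), so a change of 1.23-fold either way lies within the interval. By Xist class the Nqo1 mean was 6.85 over the 4 high arrays and 6.52 over the 2 low ones, a difference of 0.33 (SE 0.098) in a fit with treatment as the other term. The classes did not overlap, as in 8.49% of all genes, and the term did not pass (unadjusted p = 0.00921 in limma, and adjusted p = 1.00), where 0.0203% of all genes passed and 3.44% had an unadjusted p under 0.05. Nqo1 was the 1 member of 9 whose Xist classes did not overlap.

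Sod2, the superoxide dismutase of the mitochondrial matrix, measured 11.38, 11.64 and 11.45 with anti-CD25, against 11.56, 11.47 and 11.42 with rat IgG. The rat IgG values lay inside the anti-CD25 range, with a difference of 0.0061 (95% interval -0.21 to 0.22, limma adjusted p = 0.991). The mean of the 3 antioxidant members, relative to their own means, was -0.0095, 0.13 and -0.0018 on anti-CD25 1, 2 and 3, against 0.0033, 0.0021 and -0.13 on rat IgG 1, 2 and 3. Anti-CD25 2, where the phagocyte mean was the lowest of its group, held the highest antioxidant mean. The phagocyte mean minus the antioxidant mean was 0.33, -0.22 and 0.13 on anti-CD25 1, 2 and 3, against -0.098, -0.30 and 0.16 on rat IgG 1, 2 and 3. These groups overlapped, and the mean difference of 0.16 was 0.051 without rat IgG 2, 0.034 without anti-CD25 1 and -0.031 between the low Xist arrays.

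Outside the members, 48 of 51 listed genes were measured, 27 with higher and 21 with lower means, with a median of 0.013 against -0.026 over all genes and a range of -0.15 to 0.35, and 0 passed. Among 23 measured NRF2 targets, Nqo1 included, 14 had higher means and the median was 0.021. Ftl1, the ferritin light chain, had the largest difference of these and is named after its value was seen. It measured 12.40, 11.73 and 12.16 with anti-CD25, against 11.76, 11.61 and 11.86 with rat IgG, a difference of 0.35 (SE 0.16, 95% interval -0.011 to 0.71, limma adjusted p = 0.750). Anti-CD25 2 lay within the rat IgG range. Fth1, the ferritin heavy chain, was the 1 target of 23 whose groups did not overlap, where 4.28% of all genes had no overlap in this direction. It is also named after its value was seen, with a difference of 0.12 (SE 0.075, limma adjusted p = 0.762). Hmox1, which degrades haem, measured 9.06, 9.16 and 9.18 with anti-CD25, against 8.70, 8.84 and 9.25 with rat IgG, so rat IgG 3 lay above all anti-CD25 arrays. Its difference was 0.21 (SE 0.14), with 0.34 within the high Xist arrays and -0.070 between the low ones. The glutathione synthesis genes Gclc and Gclm differed by -0.020 (SE 0.090) and 0.022 (SE 0.097), and the thioredoxin reductase Txnrd1 by 0.14 (SE 0.089). Keap1, the repressor of NRF2, differed by -0.088 (95% interval -0.30 to 0.13). Of the 10 measured genes of NRF2 and its regulators, 5 had higher and 5 lower means, with a median of 0.029.

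**Figure D4:**
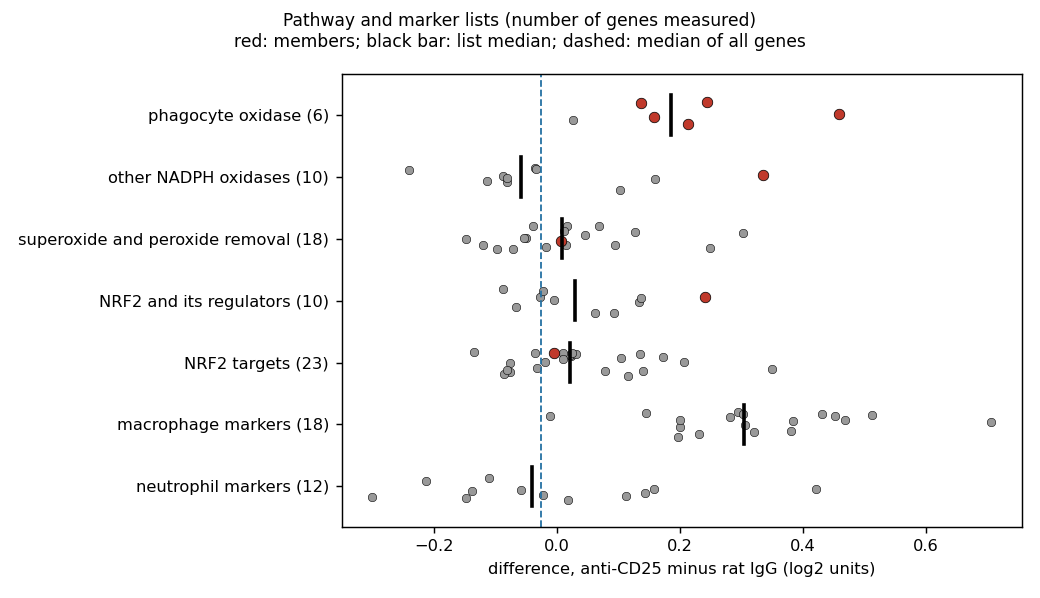
Differences between anti-CD25 and rat IgG in log2 units, 1 point per measured gene, for 5 pathway lists and 2 marker lists, with list medians as bars and the median of all genes, -0.026, as a dashed line. Phagocyte oxidase genes and macrophage markers lie mostly right of 0, with medians of 0.19 and 0.30, while the medians of the other lists lie between -0.059 and 0.029.

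Among 18 measured genes that remove superoxide and peroxides, 10 had higher and 8 lower means, with a median of 0.0086 and 0 passing. The superoxide dismutases Sod1, of the cytosol, and Sod3, of the extracellular space, differed by -0.071 (SE 0.080) and -0.019 (SE 0.090). Cat, the peroxisomal catalase, measured 11.08, 11.11 and 10.91 with anti-CD25, against 11.06, 11.08 and 10.91 with rat IgG. Like Nqo1 it was lowest on the 2 low Xist arrays, by 0.17 (SE 0.089), and its treatment difference was 0.014 (95% interval -0.19 to 0.22). Gpx1, the main cytosolic glutathione peroxidase, differed by 0.13 (SE 0.12), with 0.25 within the high Xist arrays, -0.12 between the low ones and 0.014 without anti-CD25 1. Prdx1 and Prdx4, peroxiredoxins of the cytosol and the endoplasmic reticulum, were the 2 genes of this list with an unadjusted p under 0.05 and are named after their values were seen. Prdx1 measured 11.33, 11.29 and 11.37 with anti-CD25, against 11.04, 10.88 and 11.17 with rat IgG, a difference of 0.30 (SE 0.094) with limma adjusted p = 0.750. Prdx4 differed by 0.25 (SE 0.11), also with limma adjusted p = 0.750. The groups did not overlap in either gene, as in 4.28% of all genes in this direction.

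The median difference was -0.033 over 7 T cell markers, -0.089 over 5 B cell markers, -0.031 over 7 endothelial markers, 0.00097 over 7 fibroblast markers and -0.018 over 9 muscle fibre markers, and none of these genes passed. Single markers lay farther from 0 and are named after their values were seen. Il7r, the interleukin-7 receptor, differed by 0.83 (SE 0.19, unadjusted p = 0.0020 and adjusted p = 0.750 in limma), more than any member. Its groups did not overlap, as in 4.28% of all genes in this direction. Cd79a, a B cell receptor component, differed by -0.42 (SE 0.12, limma adjusted p = 0.750). Kdr, Cldn5 and Tek, the most negative of the 7 endothelial markers, differed by -0.27 (SE 0.12), -0.24 (SE 0.12) and -0.20 (SE 0.13). The other endothelial markers lay between -0.031 and 0.022, and 0 of the 7 had an unadjusted p under 0.05 in limma. Summed T cell marker intensity was 694.3 to 771.5 with anti-CD25 and 594.9 to 642.4 with rat IgG, with no overlap. That sum includes Il7r, which measured 8.38, 8.23 and 8.47 with anti-CD25, against 7.60, 7.05 and 7.93 with rat IgG. Of the 7 T cell markers 3 had higher and 4 lower means, and the 6 other than Il7r lay below the array median on every array.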

How the data were processed

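Expression was measured on Affymetrix arrays, 1 per sample, in 6 skeletal muscle samples. The authors deposited an intensity for each of 24922 probe sets, made with RMA in Affymetrix Power Tools per the submitters' processing notes; the versions and the genome build are not stated in the sources used here. Values were on a linear scale, so log2 was taken without pseudocount. RMA draws dim probe sets together and understates their differences. Names came from the platform table: 21425 probe sets had 1 symbol, 1399 several and 2098 were not listed; the probe set with the highest mean stood for a gene.

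All 19752 genes were fitted with limma 3.58.1 (lmFit, eBayes, two-sided, group as the only term) in R 4.3.3, with Benjamini-Hochberg adjustment over all genes and a threshold of 0.05. The fit was tested on simulated data. Single genes were also compared by exact permutation over samples. A fit with Xist class as a second term, and one with its interaction with treatment, were run too. The members, gene lists and alternatives were chosen with earlier results of these data known. Named are the members, 12 fixed pathway genes that were measured, 4 check genes and the 5 genes closest in pattern to the phagocyte mean and to Nox4, predicted genes left out; any other gene is marked in the text as picked with its value known. Numbers in the titles were not used to pair samples in the main fit. Precision is limited by the number of arrays.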

Additional observations from a re-analysis of the deposited data

Results flagged for a closer look

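For 9 named genes, both high Xist anti-CD25 arrays lay on one side of both high Xist rat IgG arrays while the difference between the 2 low Xist arrays had the opposite sign. Within the high Xist arrays the difference was 0.37 for Cyba, 0.25 for Ncf4, 0.34 for Hmox1, 0.25 for Gpx1, -0.12 for Sod1, -0.15 for Duox1, -0.23 for Foxp3, -0.46 for Kdm5d and -0.38 for Duox2. Between the low Xist arrays, 1 against 1, it was -0.012 for Cyba, -0.098 for Ncf4, -0.070 for Hmox1, -0.12 for Gpx1, 0.020 for Sod1, 0.60 for Duox1, 0.18 for Foxp3, 0.059 for Kdm5d and 0.042 for Duox2. In limma's interaction of treatment and Xist class none of the 9 passed over all genes, with adjusted p = 0.478 for Cyba, 0.390 for Ncf4, 0.247 for Hmox1, 0.417 for Gpx1, 0.738 for Sod1, 0.0654 for Duox1, 0.227 for Foxp3, 0.125 for Kdm5d and 0.213 for Duox2, where 8 of all genes (0.0405%) did. Each opposite sign rests on anti-CD25 3 and rat IgG 3 alone.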

How the results depend on the processing

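No member passed under any of the 17 alternatives, which were quantile normalization of the deposited values once more, centring on medians, a robust fit with a variance trend, filters on dim genes at the 30th or the 50th percentile, weights for arrays, the mean of all probe sets, a threshold of 0.1, a replicate block, Xist class as a covariate, the high Xist arrays alone, and each array left out. Among all genes, 0 passed in each except without rat IgG 3, where 7 did, so leaving out arrays gave 0 to 7. The cause was not tested. With title numbers as a replicate block, 0 genes and 0 members passed (smallest limma adjusted p of a member 0.740). Unadjusted limma p was then 0.0020 for Cybb, 0.043 for Nox4 and 0.0519 for Nfe2l2, against 0.0931, 0.0592 and 0.0295 without the block. In the blocked fit 1105 of all genes had an unadjusted p under 0.05. Deviations of same-numbered samples correlated at 0.030, -0.0067 and -0.17 across genes, and those of differently numbered samples at -0.20 to 0.15. These few values cannot settle whether the numbers pair samples, and the numbers also follow Xist class. The 5 phagocyte genes, Nox4 and Nfe2l2 kept a positive difference in every alternative that gave one. The phagocyte mean difference ran from 0.14 to 0.35 with 1 array left out.

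Genes near 0 changed sign, and the cause was not tested. After a second quantile normalization Nqo1 was 0.0052, Sod2 -0.016, Nox1 0.051, Gclm -0.00081, Cat -0.0060 and Il2ra 0.060. After median centring Nqo1 was 0.0028 and Il2ra 0.0026. With array weights Sod2 was -0.017, Duox1 -0.014, Sod3 0.012 and Il2ra 0.031. In the high Xist arrays alone Sod2 was -0.0071, Nox1 0.0053, Duox1 -0.15, Gclc 0.035, Sod3 0.036 and Il2ra 0.094. With 1 array left out, the ranges were -0.13 to 0.11 for Nqo1, -0.069 to 0.062 for Sod2, -0.11 to 0.035 for Nox1, -0.12 to 0.22 for Duox1, -0.095 to 0.017 for Gclc, -0.037 to 0.11 for Gclm, -0.093 to 0.023 for Sod3, -0.037 to 0.074 for Cat and -0.057 to 0.065 for Il2ra. Dim genes such as Nox1 and Il2ra lie where the arrays' lower quartiles differ, from 51.2 to 57.7 in intensity.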
